A study of Mus musculus with 4 samples.

Results

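The platelet-derived growth factor (PDGF) system of the mouse liver was described through 7 genes out of 32285 measured: the 4 ligand genes Pdgfa, Pdgfb, Pdgfc and Pdgfd, the 2 receptor genes Pdgfra and Pdgfrb, and the receptor-like gene Pdgfrl. They were taken from the gene table by symbol, and all 7 were found. Single-nucleus RNA sequencing was applied to livers of male mice. DDC, a chemical given in the diet that damages the biliary tree and leads to new ductules and scarring, was fed for 4 weeks and begun when the mice were 10 to 11 weeks old. WT denotes 2 libraries from wild-type mice, and CKO 2 libraries from mice in which Rbpj, the DNA-binding partner of Notch, was knocked out in hepatic progenitor cells. Both groups had the DDC diet, and no library from an uninjured liver was analysed here. The Cre driver, the deleted exons and the number of animals behind a library are not given in the sources used here, so p-values measure only the spread between libraries, which may be technical.

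PDGF chains are secreted as dimers and act through receptor tyrosine kinases. The A and B chains are released ready to bind, whereas the C and D chains carry a CUB domain that proteases such as the plasminogen activators must cut off. PDGF receptor alpha binds dimers of A, B and C chains, and PDGF receptor beta binds mainly B and D chains. In the liver both receptors are known from mesenchymal cells, the hepatic stellate cells and portal fibroblasts, in which PDGF drives proliferation and migration during scarring.

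The 4 libraries held 5184 to 16000 barcodes and 12261329 to 45620141 unique molecular identifiers (UMIs, the counted transcript molecules). Of 39017 barcodes left after doublet removal, 18111 fell into clusters that could be named from marker genes, and pairs of libraries shared 19 to 114 barcode sequences. Class names mean resemblance to markers only, and the 7 genes were kept out of the clustering and of the marker lists. Levels are CPM, the UMIs of a gene per 1000000 UMIs of all genes in the class. They were compared for 1 gene between classes, never between genes, since they are not scaled to length. CKO replicate 2 was the thinnest library, with 46 cholangiocyte-like and 88 mesenchymal-like nuclei, against 1464 and 681 in WT replicate 1, 320 and 201 in WT replicate 2, and 499 and 405 in CKO replicate 1. RNA set free during preparation enters every droplet. Each level was therefore set beside the level expected from free RNA, estimated from the unnamed barcodes of the same library. These 20906 barcodes, with library medians of 1606.5 to 1956 UMIs, were taken to stand for free RNA, which was not tested. They include a cluster of 122 barcodes with 15 of 15 endothelial and 9 of 12 macrophage markers raised. Cholangiocyte-like and mesenchymal-like nuclei shared clusters across libraries, whereas most hepatocyte-like (clusters 7, 8, 10 and 11), macrophage-like (4, 5 and 15) and endothelial-like nuclei (9, 13 and 22) lay in clusters dominated by 1 genotype or by 1 or 2 libraries.

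Pdgfd, the gene of the D chain, was the PDGF ligand gene whose transcripts were concentrated in the bile duct epithelium. It lies on chromosome 9 (ENSMUSG00000032006, 6168584 to 6378850, + strand, GRCm38). In cholangiocyte-like nuclei it was counted at 1212 CPM in WT replicate 1, 848 CPM in WT replicate 2, 946 CPM in CKO replicate 1 and 689.7 CPM in CKO replicate 2. The lowest of these libraries lay above the highest endothelial-like library, at 181 CPM, so the cholangiocyte-like level did not overlap with that of any other class with 20 or more nuclei in every library. The pooled level was 32.4 times the level expected from free RNA. After each nucleus was thinned to 1000 UMIs, 63.9%, 52.5%, 52.1% and 45.7% of cholangiocyte-like nuclei held a Pdgfd UMI, in the order of libraries given above, and before thinning 86.5%, 66.6%, 74.9% and 56.5%. In hepatocyte-like nuclei, which are deeper (medians of 2999 to 5333 UMIs against 2006.5 to 2913.5), the thinned shares were 3.17%, 0.635%, 1.61% and 0.242% and the unthinned ones 12.2%, 2.63%, 6.21% and 1.33%.

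The promoter of Pdgfd is shown because Rbpj acts by binding DNA at its targets and Pdgfd is the ligand gene with the largest share of its UMIs in the biliary class. The RefSeq sequence covers 250 bases before to 50 after the RefSeq start (chr9:6168236-6168535, + strand, GRCm38.p6), with CpG dinucleotides in capitals:

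Pdgfd: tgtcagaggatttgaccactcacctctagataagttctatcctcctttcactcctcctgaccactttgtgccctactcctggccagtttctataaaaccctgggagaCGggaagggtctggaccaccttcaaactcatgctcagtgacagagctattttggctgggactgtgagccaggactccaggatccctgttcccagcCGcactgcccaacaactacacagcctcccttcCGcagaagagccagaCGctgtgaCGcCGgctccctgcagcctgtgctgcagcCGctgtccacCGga

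It is 56.7% G and C, with 8 CpG dinucleotides. The letters GTGGGAA, the core that Rbpj is known to bind, were searched on both strands and were in 0 of the 5 promoters held for 4 members (Pdgfa with 2 starts, Pdgfc, Pdgfd and Pdgfra). They were in 2097 of all 32851 promoters of the same length, or 6.38%. Absence says only that these letters are not in these windows of 300 bases.

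Cholangiocyte-like nuclei held 68.6% of all Pdgfd UMIs of WT replicate 1 (95% Clopper-Pearson interval 67.6 to 69.6%) and 68.6% of WT replicate 2 (65.5 to 71.7%). They held 57.0% in CKO replicate 1 (55.0 to 59.0%) and 41.3% in CKO replicate 2 (33.8 to 49.2%). Intervals cover counting error only. The share follows both the number of nuclei and the level in each. CPM takes out the number of nuclei, but not the mix of clusters within the class.

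**Figure D1:**
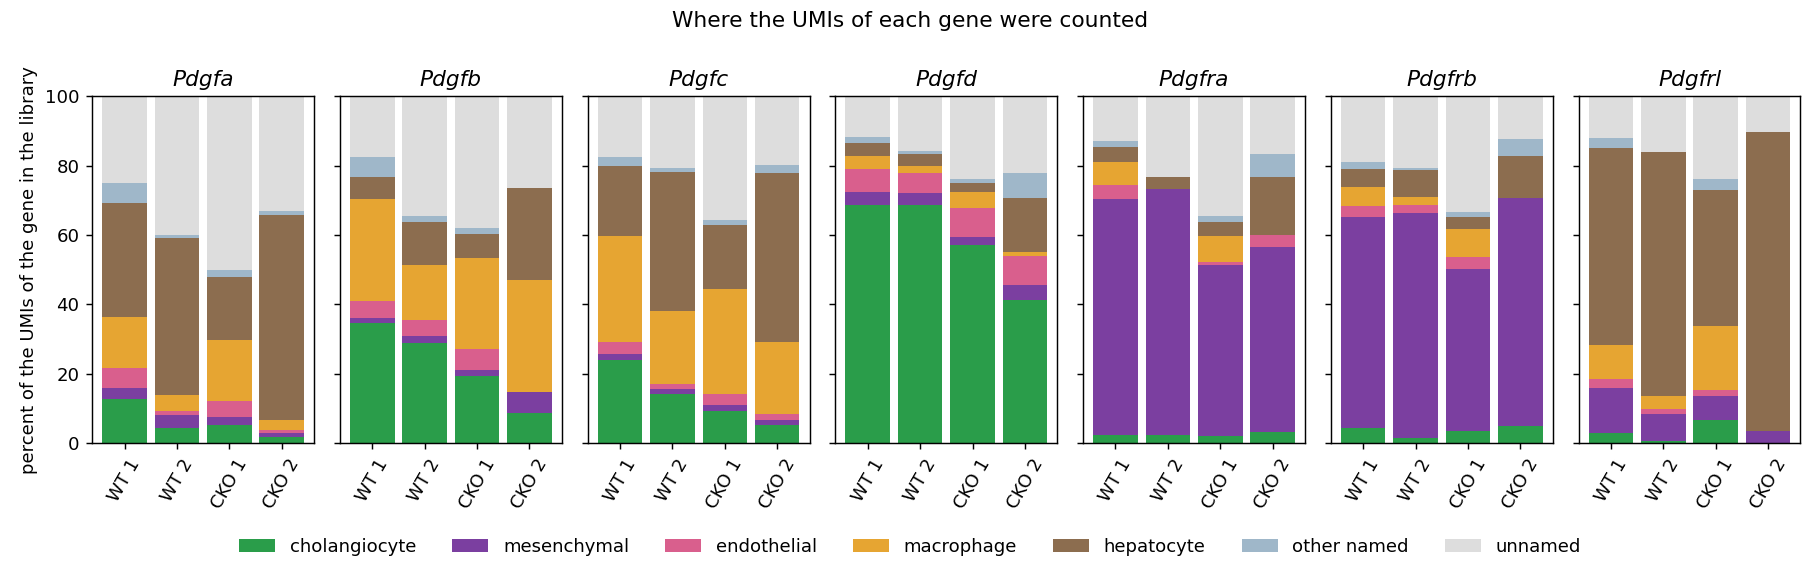
Percent (vertical axis) of the UMIs of each gene that were counted in each cell class, 1 bar per library. In all 4 libraries the largest share of Pdgfd UMIs lay in cholangiocyte-like nuclei (68.6%, 68.6%, 57.0% and 41.3%), that of Pdgfra and Pdgfrb UMIs in mesenchymal-like and that of Pdgfrl UMIs in hepatocyte-like nuclei.

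Within the cholangiocyte-like class Pdgfd was uneven. The largest cluster (1837 nuclei) held it at 1353 CPM pooled, and a cluster led by mitotic genes such as Top2a and Kif11 (90 nuclei) at 1043 CPM. The remaining cluster, led by Dab1, Kcnip4 and Glis3 (402 nuclei), held it at 311 CPM. In the largest cluster the libraries stood at 1469 and 1010.5 CPM in WT and 1166 and 1089 CPM in CKO. The CKO values lay between the WT values. In the Dab1 cluster the libraries stood at 343 and 251 CPM in WT and 280.1 and 26.6 CPM in CKO, the last on 1 UMI. The Dab1 cluster made up 15.7% and 17.5% of the cholangiocyte-like nuclei in WT and 20.2% and 32.6% in CKO. The part of this mix in the class level of Pdgfd was not tested.

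Outside the ducts, Pdgfd was next highest in endothelial-like nuclei, at 181 and 122 CPM in WT and 108 and 53.6 CPM in CKO, or 3.44 times the free RNA level. Mesenchymal-like nuclei followed at 153 and 72.8 CPM in WT and 55.4 and 40.7 CPM in CKO, or 3.27 times free RNA. The ranges of these 2 classes overlapped. By sub-cluster, artery and portal vessel-like endothelium held 274 and 238 CPM in WT and 157 and 40.5 CPM in CKO, the last on 1 UMI. Sinusoid-like endothelium held 165 and 70.9 CPM in WT and 115 and 32.7 CPM in CKO. Lymphatic-like endothelium rested on WT replicate 1, with 21 of 22 UMIs. Mesothelial-like nuclei, the lining of the liver surface, are few (47, 17, 12 and 22) but held Pdgfd at 252 and 168 CPM in WT and 202 and 167 CPM in CKO, on 6 to 32 UMIs a library. In macrophage-like nuclei Pdgfd was at 0.964 times its free RNA level, and in hepatocyte-like nuclei at 1.25 times.

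**Figure D2:**
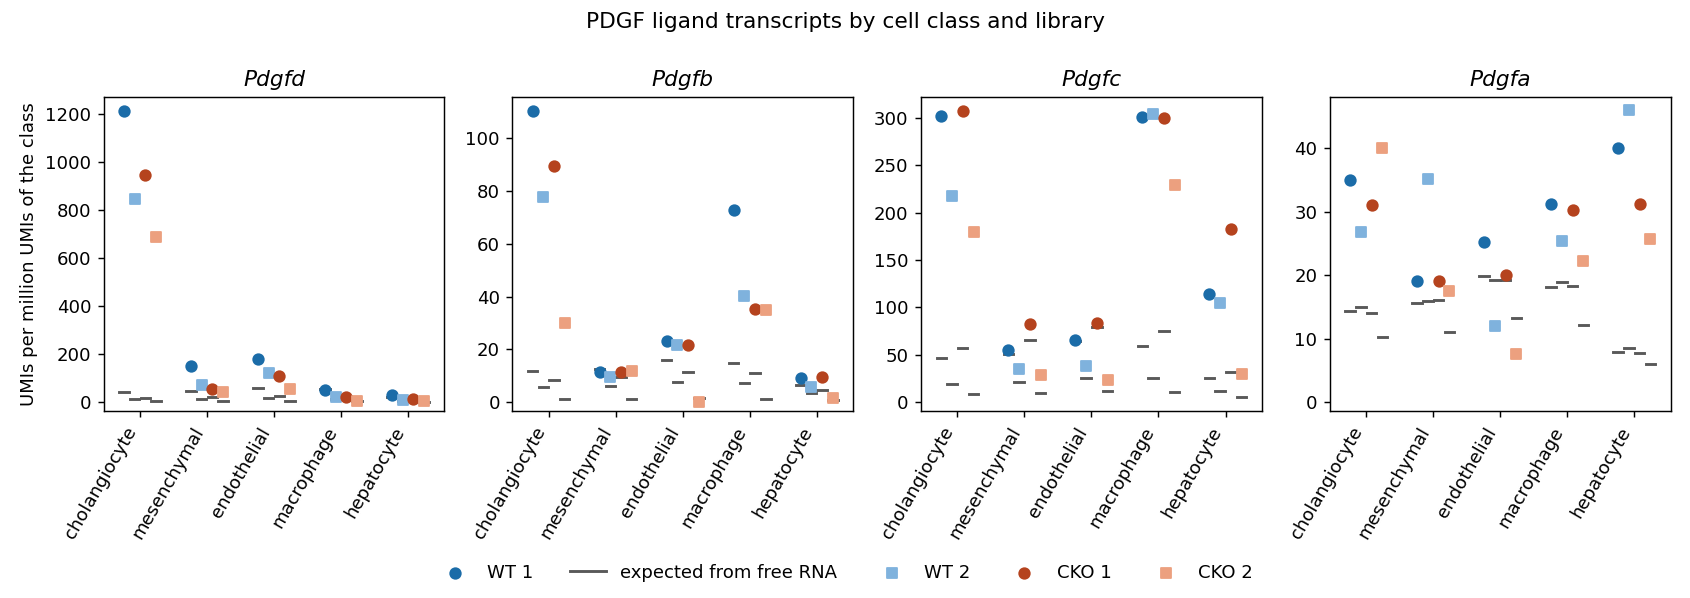
Levels of the 4 ligand genes in CPM of the class (vertical axes, which differ between panels) for 5 cell classes; each point is 1 library and each grey dash the level expected from free RNA. The 4 cholangiocyte-like Pdgfd points, between 689.7 and 1212, lie above all other Pdgfd points, whereas Pdgfc points of cholangiocyte-like and macrophage-like nuclei lie in the same range.

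Pdgfb, the gene of the B chain (ENSMUSG00000000489, chromosome 15, 79995874 to 80014977), was counted in both biliary and macrophage nuclei. In cholangiocyte-like nuclei it stood at 110.0 and 77.5 CPM in WT and 89.2 and 29.99 CPM in CKO, the last on 3 UMIs. In macrophage-like nuclei it stood at 72.9 and 40.1 CPM in WT and 35.3 and 35.1 CPM in CKO. The pooled levels were 9.89 and 4.38 times free RNA, and the ranges of the 2 classes overlapped. Endothelial-like nuclei held less, at 23.3 and 21.5 CPM in WT and 21.7 and 0 CPM in CKO. The count of 0 in CKO replicate 2 allows up to 11.5 CPM (3 counts), so an absence there cannot be read from it.

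Pdgfc, the gene of the C chain (ENSMUSG00000028019, chromosome 3, 81036416 to 81214040), was highest in macrophage-like and cholangiocyte-like nuclei, whose ranges overlapped. Macrophage-like nuclei held 301 and 303 CPM in WT and 300.1 and 229 CPM in CKO. Cholangiocyte-like nuclei held 302 and 217 CPM in WT and 307 and 179.9 CPM in CKO. These pooled levels were 4.78 and 6.38 times free RNA. Hepatocyte-like nuclei held it at 114 and 105 CPM in WT, but at 183 CPM in CKO replicate 1 and 30.2 CPM in CKO replicate 2. The 2 CKO libraries thus stood on either side of both WT libraries. In endothelial-like and mesenchymal-like nuclei Pdgfc was at 1.051 and 1.20 times the free RNA level.

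Pdgfa, the gene of the A chain (ENSMUSG00000025856, chromosome 5, 138976014 to 138997370, - strand), was spread thinly over the classes, and each neighbour in the order of classes overlapped with the next. Hepatocyte-like nuclei held 40.0 and 46.1 CPM in WT and 31.2 and 25.7 CPM in CKO. Cholangiocyte-like nuclei held 35.0 and 26.8 CPM in WT and 31.1 and 40.0 CPM in CKO. Macrophage-like nuclei held 22.3 to 31.2 CPM. The pooled levels were 4.79, 2.33 and 1.67 times free RNA, and mesenchymal-like and endothelial-like nuclei were at 1.34 and 1.12 times.

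Pdgfra and Pdgfrb, the genes of the 2 PDGF receptors, stood at more than 1.5 times free RNA in mesenchymal-like nuclei only, among the 5 classes with 20 or more nuclei in each library. Pdgfra (ENSMUSG00000029231, chromosome 5, 75152292 to 75198215) stood at 164 and 136 CPM in WT and 132 and 93.1 CPM in CKO, on 326, 58, 138 and 16 UMIs. The pooled level was 50.7 times free RNA, while in the other 4 classes it was 1.07 to 1.31 times. Pdgfrb (ENSMUSG00000024620, chromosome 18, 61045150 to 61085061) stood at 208 and 199.6 CPM in WT and 150.1 and 157 CPM in CKO, on 412, 85, 157 and 27 UMIs. Its pooled level was 37.8 times free RNA, against 0.954 to 1.32 times elsewhere. For both genes the lowest mesenchymal-like library lay above the highest library of any other of the 5 classes, 10.0 CPM for Pdgfra and 19.99 CPM for Pdgfrb, both in the thin cholangiocyte-like sum of CKO replicate 2 on 1 and 2 UMIs.

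After thinning to 1000 UMIs, 13.1%, 14.9%, 10.1% and 10.2% of mesenchymal-like nuclei held a Pdgfra UMI and 16.7%, 20.4%, 15.6% and 10.2% a Pdgfrb UMI, in the order WT replicates 1 and 2, CKO replicates 1 and 2. Before thinning the shares were 30.8%, 24.9%, 25.7% and 18.2% for Pdgfra and 41.7%, 33.8%, 29.4% and 23.9% for Pdgfrb. In hepatocyte-like nuclei the thinned shares did not exceed 0.321% for either gene. The median mesenchymal-like depth was 1854.5 to 2700.0 UMIs.

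**Figure D3:**
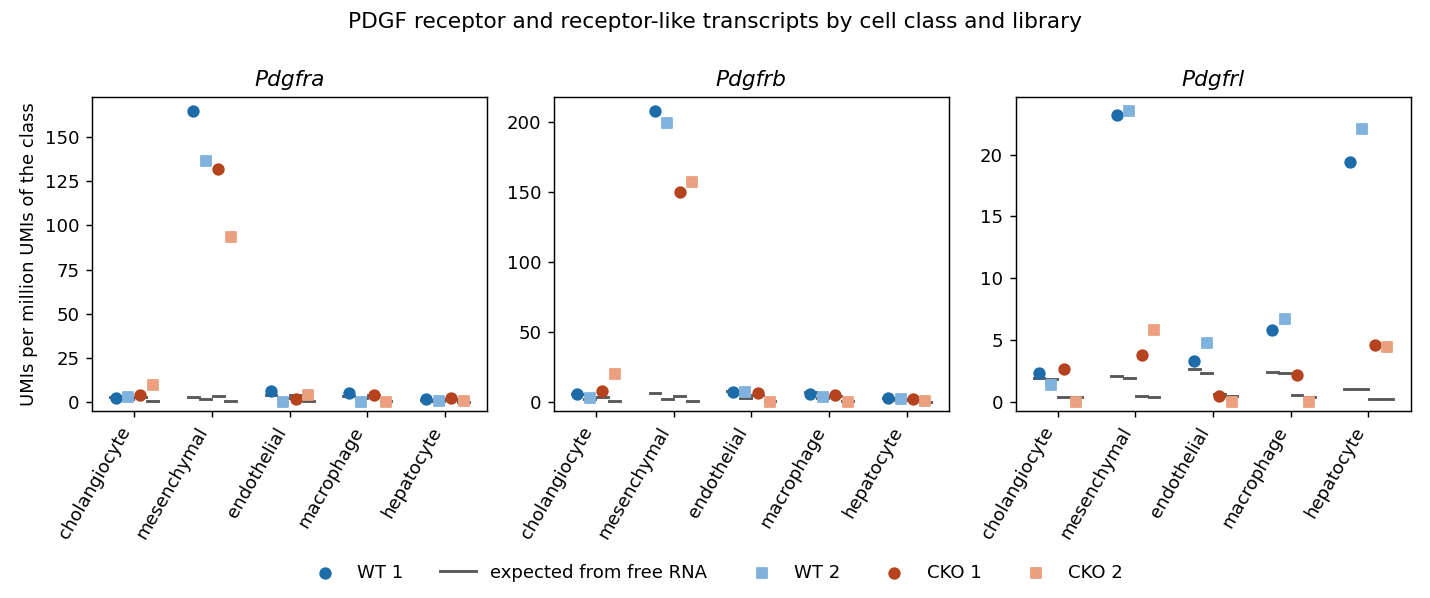
Levels of Pdgfra, Pdgfrb and Pdgfrl in CPM of the class (vertical axes, which differ between panels) for 5 cell classes; each point is 1 library and each grey dash the level expected from free RNA. Pdgfra and Pdgfrb points rise above the dashes in mesenchymal-like nuclei, and the Pdgfrl points of WT, between 19.4 and 23.5 in mesenchymal-like and hepatocyte-like nuclei, lie above those of CKO, between 3.82 and 5.82.

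Sub-clusters of the mesenchymal class carried both receptors. The portal fibroblast-like name rested on 4 to 6 of 13 markers, and 1 of its 3 sub-clusters (30 nuclei) also had 7 of 13 cholangiocyte markers raised. Stellate-like nuclei held Pdgfra at 118 and 127 CPM in WT and 137 and 172 CPM in CKO, the last on 5 UMIs. Portal fibroblast-like nuclei held it at 197 and 124 CPM in WT and 149.7 CPM in CKO replicate 1, so the 2 types were not separated. Pdgfrb stood at 196 and 243 CPM in WT and 128 CPM in CKO replicate 1 in stellate-like nuclei, and at 199 and 204 CPM in WT and 168 CPM in CKO replicate 1 in portal fibroblast-like nuclei. In CKO replicate 2 the 15 stellate-like nuclei held 0 Pdgfrb UMIs and there was 1 portal fibroblast-like nucleus. Smooth muscle-like nuclei, which form the walls of vessels, held Pdgfrb at 288 CPM in WT replicate 1 and 476 CPM in CKO replicate 1, on 15 and 12 UMIs in 19 and 10 nuclei. Nuclei without a sub-type made up 38.2% and 47.3% of the class in WT and 61.0% and 79.5% in CKO. Among them, 71 nuclei led by Plcxd3 and Wt1 held Pdgfra at 272, Pdgfrb at 282, Pdgfd at 317 and Pdgfrl at 59.4 CPM pooled, the last on 12 UMIs. A sub-cluster of 65 nuclei had 14 of 15 endothelial markers raised. In a sub-cluster of 59 nuclei, 10 of 12 macrophage markers were raised.

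**Figure D4:**
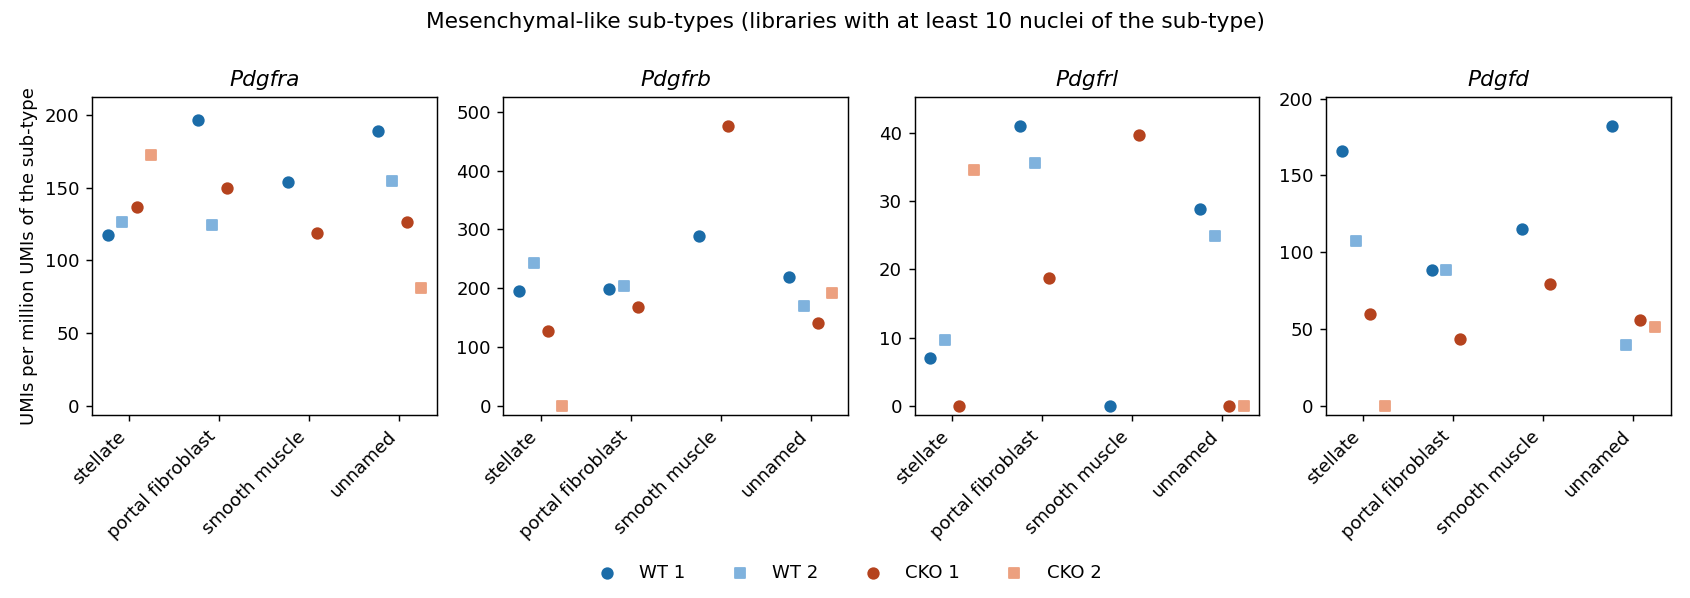
Levels of Pdgfra, Pdgfrb, Pdgfrl and Pdgfd in CPM of the sub-type (vertical axes, which differ between panels) in mesenchymal-like sub-types; each point is 1 library, shown where it held at least 10 nuclei. Stellate and portal fibroblast points overlap for Pdgfra and, apart from the stellate point at 0, for Pdgfrb, while WT Pdgfrl points are higher in portal fibroblast-like than in stellate-like nuclei.

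Pdgfrl encodes a secreted protein that resembles the ligand-binding part of a PDGF receptor, without a kinase. It lies on chromosome 8 (ENSMUSG00000031595, 40926212 to 40990785). In mesenchymal-like nuclei it stood at 23.2 and 23.5 CPM in WT and 3.82 and 5.82 CPM in CKO, on 46, 10, 4 and 1 UMIs. In hepatocyte-like nuclei it stood at 19.4 and 22.1 CPM in WT and 4.61 and 4.47 CPM in CKO, on 204, 92, 23 and 25 UMIs. The pooled levels were 10.8 and 19.0 times free RNA, and the ranges of the 2 classes overlapped. Macrophage-like nuclei held 5.84 and 6.68 CPM in WT and 2.19 and 0 CPM in CKO. The last value allows up to 9.56 CPM, which exceeds both WT values. Hepatocyte-like nuclei held 56.7% and 70.2% of all Pdgfrl UMIs in the WT libraries and 39.0% and 86.2% in the CKO libraries (95% Clopper-Pearson intervals 51.4 to 61.9%, 61.6 to 77.9%, 26.6 to 52.6% and 68.3 to 96.1%).

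The effect of the Rbpj knockout on these genes was compared over libraries, with counts summed per class. Rbpj itself stood at 80.6 and 64.8 CPM in WT and 73.7 and 40.0 CPM in CKO cholangiocyte-like nuclei, on 375, 46, 109 and 4 UMIs. Its log2 change was -0.05 (SE 0.26). As the deleted exons are not given and 3' tags can come from a deleted allele, these counts do not check the genotype labels.

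None of the PDGF genes passed the edgeR quasi-likelihood test (Benjamini-Hochberg adjusted p under 0.05 over all genes) in any class or in whole libraries. No gene of any kind passed it: 0.0% of 10514 genes in cholangiocyte-like, 0.0% of 8688 in mesenchymal-like, 0.0% of 9825 in endothelial-like, 0.0% of 12137 in macrophage-like and 0.0% of 13407 in hepatocyte-like nuclei, and 0.0% of 16794 in whole libraries. At an unadjusted p under 0.05 there were 549, 657, 471, 630, 224 and 245 genes in that order, and DESeq2 called 0, 1, 1, 3, 2 and 1 genes, of which 0 were PDGF genes. With 2 libraries a side, the smallest p of an exact permutation test is 0.333.

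In the bile duct class the 4 ligands did not separate the genotypes. The mean of Pdgfd was 1030 ± 257 CPM (SD, n = 2) in WT against 818 ± 181 CPM (n = 2) in CKO. Its log2 change was -0.24 (SE 0.31). Pdgfb was at 93.8 ± 23.0 and 59.6 ± 41.9 CPM, a log2 change of -0.22 (SE 0.30). Pdgfc and Pdgfa had log2 changes of 0.07 (SE 0.29) and 0.07 (SE 0.29). All 4 adjusted p were 0.999, and the ranges of the genotypes overlapped for each. Leaving out CKO replicate 1 gave -1.56 for Pdgfb and -0.46 for Pdgfd, and leaving out CKO replicate 2 gave -0.04 and -0.06. Leaving out WT replicate 2 gave -0.44 and -0.40, and leaving out WT replicate 1 gave -0.17 and -0.10. Of the 10514 genes tested, 21.6% had both CKO libraries below both WT libraries, against 0 of these 4. Pdgfra, Pdgfrb and Pdgfrl were too low to be tested in this class, at 20, 45 and 16 UMIs in all.

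In the mesenchymal-like class as a whole the receptor levels of CKO lay below those of WT in CPM, by differences that did not pass the test. The mean of Pdgfra was 150.3 ± 19.96 CPM (SD, n = 2) in WT against 113 ± 27.4 CPM (n = 2) in CKO, and its log2 change was -0.21 (SE 0.26, edgeR adjusted p = 0.948). Pdgfrb was at 204 ± 5.80 and 154 ± 5.03 CPM, a log2 change of -0.26 (SE 0.27, edgeR adjusted p = 0.927). Both CKO libraries lay below both WT libraries for 5 of 6 tested PDGF genes, against 26.8% of all 8688 tested genes. The estimated share of free RNA in these nuclei was 56.2% and 62.3% in WT and 66.9% and 71.5% in CKO. It was thus higher in the genotype with the lower receptor levels. Within CKO, Pdgfrb was higher in replicate 2, the library with the larger share. With free RNA subtracted, Pdgfra stood at 359 and 321 CPM in WT and 377 and 263 CPM in CKO, so that the genotypes overlapped. Pdgfrb then stood at 449 and 473 CPM in WT and 431 and 445 CPM in CKO, with both CKO libraries still below both WT libraries. In stellate-like nuclei, before this subtraction, Pdgfra was at 118 and 127 CPM in WT. Both CKO libraries lay above, at 137 and 172 CPM, the last on 5 UMIs. In nuclei without a sub-type both lay below, at 126 and 80.9 CPM against 189 and 155 CPM. Stellate-like nuclei made up 36.0% and 25.4% of the class in WT and 21.5% and 17.0% in CKO. The part of this mix in the receptor levels was not tested.

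Pdgfrl had the largest estimated changes of the 7 genes. Its log2 change was -2.31 in mesenchymal-like (SE 0.62, unadjusted p = 0.00306, edgeR adjusted p = 0.331), -2.12 in hepatocyte-like (SE 0.30, unadjusted p = 0.00124, edgeR adjusted p = 0.9998) and -1.42 in macrophage-like nuclei (SE 0.73, edgeR adjusted p = 0.991). By unadjusted p it ranked 5 of 13407 genes in hepatocyte-like and 79 of 8688 in mesenchymal-like nuclei. Both CKO libraries lay below both WT libraries in each of these 3 classes. Of all genes tested, 26.8% did so in mesenchymal-like, 16.6% in hepatocyte-like and 25.9% in macrophage-like nuclei. With free RNA subtracted, Pdgfrl stood at 47.1 and 50.7 CPM in WT against 8.44 and 16.5 CPM in CKO mesenchymal-like nuclei. In hepatocyte-like nuclei it then stood at 25.5 and 30.9 CPM against 6.50 and 6.63 CPM. In macrophage-like nuclei it stood at 9.32 and 13.2 CPM against 6.63 and 0 CPM. Both CKO libraries were also lower in endothelial-like nuclei, on 13 UMIs in all, and in the unnamed barcodes (means 3.47 and 0.68 CPM). In the mesenchymal class the mix of cells differed as well: portal fibroblast-like nuclei, with 41.0 and 35.5 CPM of Pdgfrl in WT against 7.08 and 9.73 CPM in WT stellate-like nuclei, made up 23.1% and 24.4% of the class in WT and 15.1% and 1.14% in CKO. Within portal fibroblast-like nuclei CKO replicate 1 held 18.7 CPM, on 3 UMIs. Mesenchymal-like nuclei that could not be assigned to a sub-type held 22 and 5 Pdgfrl UMIs in WT (28.9 and 24.9 CPM) and 0 in both CKO libraries. The part of the mix in the change was not tested. Without CKO replicate 2 the mesenchymal Pdgfrl change was -2.43 (edgeR adjusted p = 0.0123), among 353 genes called of 10729 (3.29%). Without CKO replicate 1 the hepatocyte change was -2.04 (edgeR adjusted p = 0.0218), among 399 genes called of 14025 (2.84%). In these fits the lone CKO library was assumed to vary like the WT libraries.

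**Figure D5:**
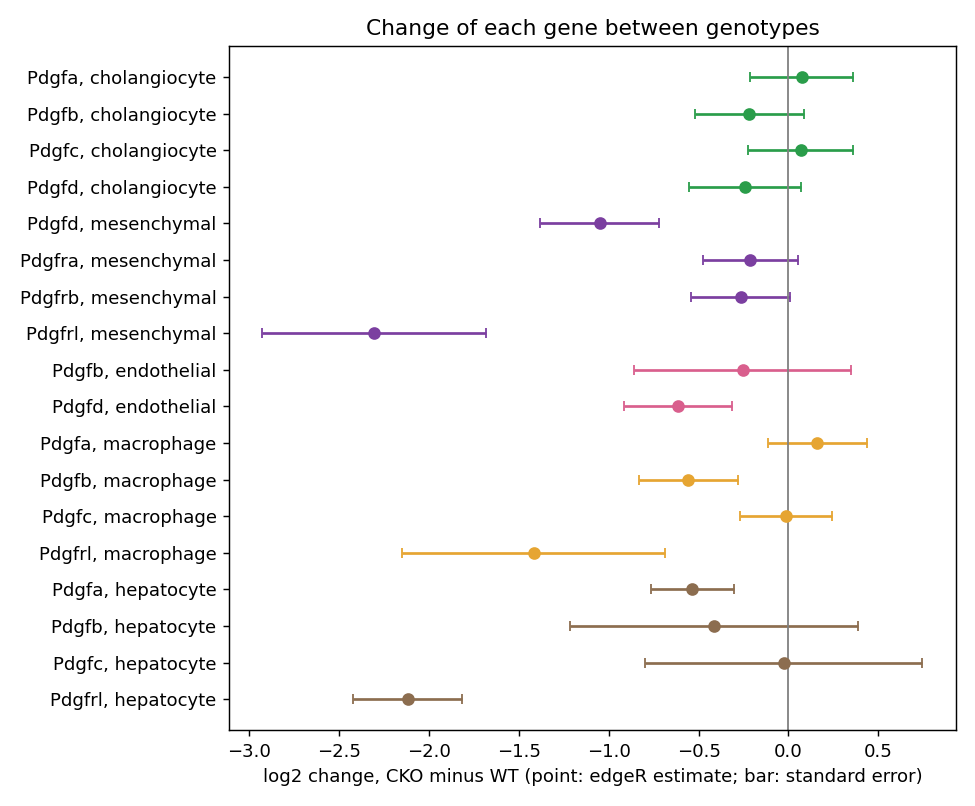
Estimated log2 change, CKO minus WT (horizontal axis; point, edgeR estimate; bar, standard error), for each PDGF gene that could be tested and stood at 1.5 times or more its free RNA level in a class. The 3 Pdgfrl points lie between -2.31 and -1.42, whereas the 4 cholangiocyte-like points lie between -0.24 and 0.07.

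In mesenchymal-like and endothelial-like nuclei both CKO libraries lay below both WT libraries for Pdgfd, whereas mesothelial-like, macrophage-like and hepatocyte-like nuclei overlapped between genotypes. In mesenchymal-like nuclei its log2 change was -1.05 (SE 0.33, unadjusted p = 0.00811, edgeR adjusted p = 0.448), and in endothelial-like nuclei -0.62 (SE 0.30, edgeR adjusted p = 0.9997). In the latter class this held for 1 of 4 tested PDGF genes and for 27.6% of all genes. Cholangiocyte markers moved with the mesenchymal value: the summed level of the 13 markers was 1993 and 1620 CPM in WT and 1574 and 797 CPM in CKO mesenchymal-like nuclei. In CKO replicate 2 only 6 of them had a UMI, with Epcam, Krt7, Krt19, Cftr, Ehf, Tspan8 and Ctnnd2 at 0, while all 13 had one in the other libraries. The sum there rested on 137 marker UMIs, against 3952 and 690 in WT and 1647 in CKO replicate 1. An absence cannot be read from these zeros. In endothelial-like nuclei the same sum was 1255 and 931 CPM in WT and 854 and 421 CPM in CKO. The part of biliary RNA in these Pdgfd differences was not tested. With free RNA subtracted, mesenchymal Pdgfd stood at 236 and 141 CPM in WT and 98.5 and 98.8 CPM in CKO, and endothelial Pdgfd at 407 and 368 CPM against 404 and 206 CPM, which overlapped. Without CKO replicate 2 the mesenchymal Pdgfd change was -1.02 (edgeR adjusted p = 0.0215).

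In macrophage-like nuclei Pdgfb had a log2 change of -0.56 (SE 0.28, edgeR adjusted p = 0.984), with both CKO libraries below both WT libraries. The log2 changes of Pdgfc and Pdgfa there were -0.01 (SE 0.26) and 0.16 (SE 0.27). Counting Pdgfb, Pdgfc and Pdgfrl, 3 of 7 tested PDGF genes had both CKO libraries below WT in CPM, against 25.9% of all genes. CPM leaves out the TMM factors of the fits, here 1.21 and 0.94 in WT and 0.996 and 0.88 in CKO. The order of close values, as for Pdgfc, can differ on that scale. The estimated free RNA share of these nuclei was 65.4% and 73.8% in WT and 76.4% and 78.6% in CKO. With free RNA subtracted, Pdgfb stood at 163 and 106 CPM in WT against 101 and 129 CPM in CKO and Pdgfc at 676 and 916 CPM against 935 and 809 CPM, so that both overlapped. Without WT replicate 1 the Pdgfb estimate was -0.21. In hepatocyte-like nuclei Pdgfa had a log2 change of -0.53 (SE 0.23, edgeR adjusted p = 0.9998), again with both CKO libraries below WT. With Pdgfrl that made 2 of 7, against 16.6% of all genes. The log2 change of hepatocyte Pdgfc was -0.02 (SE 0.77) in the fit of all libraries, -1.69 without CKO replicate 1 (edgeR adjusted p = 0.0101) and 0.73 without CKO replicate 2 (edgeR adjusted p = 0.195). That of Pdgfb was -0.42 (SE 0.80) in hepatocyte-like and -0.25 (SE 0.61) in endothelial-like nuclei.

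Over all kept barcodes, where fewer cells of a type and less RNA per cell cannot be told apart, all 7 genes had negative estimates. Their median was -0.70, where that of all genes tested was 0.04. The share of all genes with a negative estimate was not counted. CKO replicate 2 was the lowest library for each of the 7 genes except Pdgfrl. Pdgfd stood at 208 and 66.6 CPM in WT and 74.2 and 14.2 CPM in CKO, a log2 change of -1.32 (SE 0.81), and the genotypes overlapped. Leaving out CKO replicate 1 gave -2.83, leaving out WT replicate 1 gave -0.65 and leaving out CKO replicate 2 gave -0.60. Pdgfrl stood at 9.09 and 9.95 CPM in WT and 1.78 and 2.47 CPM in CKO, a log2 change of -1.91 (SE 0.49, unadjusted p = 0.0131, edgeR adjusted p = 0.9999). The other changes were -0.86 (SE 0.87) for Pdgfb, -0.70 (SE 0.52) for Pdgfrb, -0.44 (SE 0.60) for Pdgfra, -0.22 (SE 0.29) for Pdgfa and -0.11 (SE 0.71) for Pdgfc. Both CKO libraries lay below both WT libraries for 2 of 7, Pdgfrl and Pdgfa, against 19.7% of all 16794 genes. Without CKO replicate 2 the estimates were -0.09 for Pdgfb, -0.20 for Pdgfrb and 0.11 for Pdgfra, and without CKO replicate 1 they were -2.75, -1.57 and -1.45.

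Genes around the receptors were read from 4 lists, and 0 genes of any list passed the test in any class. Among 12 activating proteases and binding proteins, 10 were tested in cholangiocyte-like nuclei, and the median of their log2 changes was 0.14, where that of all genes was -0.02. Those with the smallest p were Lrp1, an endocytic receptor that binds PDGF receptor beta, and Plat, a plasminogen activator that can activate the C chain. Lrp1 stood at 119 and 129.7 CPM in WT and 215 and 149.9 CPM in CKO, a log2 change of 0.72 (SE 0.26, edgeR adjusted p = 0.926). Plat, on 50, 2, 28 and 1 UMIs, had 1.12 (SE 0.51, edgeR adjusted p = 0.953). In mesenchymal-like nuclei 9 genes of this list were tested, with a median of 0.04, and the leading pair were the integrin chain gene Itgb3 (0.44, SE 0.26) and the matrix gene Thbs1 (-0.66, SE 0.49).

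The 19 relays of receptor signals were all tested in both classes, with medians of -0.0048 in cholangiocyte-like and -0.03 in mesenchymal-like nuclei. Pik3r1, the regulatory subunit of PI3-kinase that docks on both receptors, stood at 339 and 364 CPM in WT and 229 and 221 CPM in CKO mesenchymal-like nuclei, a log2 change of -0.49 (SE 0.29, edgeR adjusted p = 0.787). The adaptor gene Shb followed with -0.39 (SE 0.28). In cholangiocyte-like nuclei the adaptor gene Crkl led with -0.49 (SE 0.34). Of 12 negative regulators, 7 were tested in cholangiocyte-like and 8 in mesenchymal-like nuclei, with medians of 0.16 and 0.02. The ubiquitin ligase gene Cblb (0.31, SE 0.24) and the phosphatase gene Ptpn2 (-0.30, SE 0.25) led in the former, and the phosphatase genes Ptprj (0.37, SE 0.31) and Dusp6 (0.44, SE 0.44) in the latter.

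Of 11 growth factor response genes, 5 were tested in cholangiocyte-like nuclei, and all 5 estimates were positive, with a median of 0.35. Ccnd1, the gene of cyclin D1, stood at 105 and 93.0 CPM in WT and 173 and 90.0 CPM in CKO, so that the genotypes overlapped, with a log2 change of 0.67 (SE 0.27, edgeR adjusted p = 0.938). The early response gene Egr1 had 0.65 (SE 0.29, edgeR adjusted p = 0.953). In mesenchymal-like nuclei 4 were tested, with a median of 0.11. Ccnd1 stood there at 76.1 and 54.0 CPM in WT but at 176 and 23.3 CPM in CKO, a log2 change of 1.02 (SE 0.45, edgeR adjusted p = 0.628), with only CKO replicate 1 above the WT libraries. The early response gene Junb had -0.60 (SE 0.36). Positive estimates of this list were not particular to the bile duct class. They were 4 of 5 in endothelial-like (median 0.49), 6 of 6 in macrophage-like (0.73) and 3 of 8 in hepatocyte-like nuclei (-0.19). The Ccnd1 estimate was also positive in endothelial-like (1.04), macrophage-like (0.91) and hepatocyte-like nuclei (0.52) and in whole libraries (0.78).

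The genes whose levels ran most like each PDGF gene were found over 29 sums of a class in a library, among 14975 genes, by Pearson correlation of log2(CPM + 10). The sums share libraries and depth, so the values are a description. Pdgfd ran most like Epb41l4a (r = 0.95), Zfp462 (0.92), Ptpn14 (0.92), Arhgef28 (0.91) and Cftr (0.91), the last the chloride channel gene of bile duct epithelium. Pdgfra ran most like Lama1 (0.97), Ednra, the endothelin receptor gene (0.96), Bmp5 (0.96), Gpc6 (0.96) and Nr1h5 (0.95). Pdgfrb ran most like Ccbe1 (0.97), Mark1 (0.94), Sntg1 (0.94), Lama2 (0.94) and Ednra (0.93), so Ednra was near both receptors. The other members had less similar neighbours. Pdgfc ran most like Ston2 (0.83), Fgd4 (0.81), Ptprj (0.81), Cadm1 (0.80) and B4galt6 (0.80). Pdgfb ran most like Cxcl16 (0.81), Creb5 (0.81), Scara3 (0.80), Rtn4 (0.80) and Myof (0.80). Pdgfa ran most like B3galnt2 (0.78), Ppcdc (0.76), Dennd1b (0.76), Nav2 (0.74) and Tbce (0.73). Pdgfrl ran most like Gm34280 (0.73), B430010I23Rik (0.73), Parp3 (0.71), Pkd1l3 (0.71) and Gm16178 (0.70).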

How the data were processed

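Per the labels, the authors isolated nuclei of fresh-frozen tissue, lightly fixed with paraformaldehyde, and made 10x Genomics 3' libraries. The deposited matrices hold raw UMI counts per gene and barcode, from Cell Ranger 5.0.1 on mm10 per the submitters' processing notes. The counts are not normalised, and whether intronic reads were counted is not given in the sources used here. Each library had 5184 to 16000 barcodes, with median UMI counts of 1722 to 2267. 7 added sequences were not used.

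The 7 PDGF genes and all lists were chosen with earlier results of these data known. Barcodes with at least 500 genes were kept (all 43664), 4647 with the highest Scrublet scores were removed (0.8% per 1000 barcodes), and the rest were clustered without the PDGF genes (scanpy 1.11.5, Leiden resolution 1, 29 clusters). A cluster was named when at least 3 markers, and 50% of a list, lay 1.5 times or more above the 10% of barcodes with the fewest UMIs. Mesenchymal-like and endothelial-like nuclei were clustered again; a sub-cluster took the type with the largest share of its markers raised over the rest of the class, at least 3, and those with 60% of the markers of another class stayed unnamed. The free RNA level scales the profile of unnamed barcodes to secreted hepatocyte transcripts (for hepatocyte-like nuclei, mitochondrial transcripts). Summed counts were tested with edgeR 4.0.16 (filterByExpr, TMM, quasi-likelihood, two-sided), after a test on simulated data, and with DESeq2 1.42.0 as an alternative. Genes with both CKO libraries below both WT libraries were counted in CPM without the TMM factors, so these counts can differ on the scale of the fits.

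Changes are given where a PDGF gene passed the count filter at 1.5 times or more free RNA, and in whole libraries; of each list, genes past the threshold or else the 2 with the smallest p in cholangiocyte-like and mesenchymal-like nuclei (1 such gene is not reported here); for likeness, the 5 closest genes. Promoters are RefSeq sequences on GRCm38.p6, held for 4 of 7 members; gene positions are of GRCm38. The replicate numbers are not said to pair libraries, so they were not used as a block in the main fits. Alternatives are given in the closing section, 2 of them chosen after seeing the data.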

Additional observations from a re-analysis of the deposited data

How the results depend on the processing

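With 2 libraries a genotype and 46 cholangiocyte-like nuclei in CKO replicate 2, modest changes could not be called, and low counts such as those of Pdgfrl limit precision. Large changes could go uncalled too. Hepatocyte-like Pdgfrl, at a log2 change of -2.12 (SE 0.30), had an edgeR adjusted p of 0.9998. The smallest edgeR adjusted p of any gene in that fit was 0.9998. Across alternatives, 15 of the 25 printed changes never changed sign: Pdgfrl, Pdgfd and Pdgfrb changes were negative in every class where they were printed. The number of PDGF genes past the threshold was 0 in each class and in whole libraries under all alternatives except that leaving out 1 library gave 0 to 2 in mesenchymal-like (2, Pdgfd and Pdgfrl, without CKO replicate 2) and 0 to 2 in hepatocyte-like nuclei (2, Pdgfc and Pdgfrl, without CKO replicate 1).

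Genes called of any kind were 0 in all main fits. Without a count filter they were 114, 143, 73, 131, 0 and 0 (cholangiocyte-like, mesenchymal-like, endothelial-like, macrophage-like, hepatocyte-like, whole libraries), and without CKO replicate 1 they were 3, 243, 269, 55, 399 and 2. Without CKO replicate 2 they were 97, 353, 373, 214, 18 and 0, without WT replicate 2 they were 7, 23, 2, 42, 0 and 0, and without WT replicate 1 they were 17 and then 0 in the rest. DESeq2 called 0, 1, 1, 3, 2 and 1. With the replicate block they were 5, 0, 4, 11, 0 and 0, with 0 PDGF genes. Deviations of same-numbered libraries correlated at 0.07 to 0.49, and with only 2 pairs and no label that pairs them the numbers were not taken as pairs. The added restriction to the largest cholangiocyte-like cluster called 2 genes.

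These log2 changes changed sign, and the cause was not tested. In cholangiocyte-like nuclei, Pdgfa was -0.18 in the largest cluster alone, and Pdgfc was -0.0068 with the replicate block and -0.43 to 0.29 with a library left out. In endothelial-like nuclei, Pdgfb was -0.30 to 0.12 with a library left out. In macrophage-like nuclei, Pdgfa was -0.039 without doublet removal, -0.34 with counts thinned to the smallest library and -0.044 to 0.24 with a library left out. Pdgfc there was 0.0023 with the replicate block, 0.027 without doublet removal, 0.14 with free RNA subtracted, 0.038 at Leiden resolution 2 and -0.19 to 0.18 with a library left out. In hepatocyte-like nuclei, Pdgfb was 0.20 with free RNA subtracted and -2.05 to 0.30 with a library left out. Pdgfc there was 0.0032 with thinned counts, 0.016 with free RNA subtracted and -1.69 to 0.73 with a library left out. Changes that kept their sign also moved with a library left out: Pdgfb -1.56 to -0.04 and Pdgfd -0.46 to -0.06 in cholangiocyte-like, Pdgfd -1.34 to -0.52, Pdgfra -0.45 to -0.10 and Pdgfrb -0.36 to -0.13 in mesenchymal-like, Pdgfd -1.18 to -0.39 in endothelial-like and Pdgfb -0.71 to -0.21 in macrophage-like nuclei, and Pdgfd -2.83 to -0.60, Pdgfb -2.75 to -0.09 and Pdgfrb -1.57 to -0.20 in whole libraries. In whole libraries, leaving out a library gave -0.46 to 0.063 for Pdgfa, -1.58 to 0.60 for Pdgfc and -1.45 to 0.11 for Pdgfra.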
